A study of Mus musculus with 12 samples.

Results

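Levels of 6 genes that mark red blood cells were described across a mouse optic nerve RNA-seq study: Hba-a1, Hba-a2, Hbb-bs, Hbb-bt, Alas2 and Slc4a1. They were taken by symbol from the deposited count table, in which all 6 were found among 35275 genes. The study compared optic nerves of mice described as an NF1 model (neurofibromatosis type 1, a tumour predisposition syndrome caused by loss of the NF1 protein). All groups share that background, and the labels name no allele, strain, promoter, age, dose or treatment time. The groups are PBS, the saline control (6 libraries, numbered 1 to 6), carboplatin, a platinum compound that crosslinks DNA (3 libraries), and selumetinib, an inhibitor of the kinases MEK1 and MEK2 (3 libraries). The labels list the PBS libraries in 2 sets, 1 to 3 ahead of the carboplatin libraries and 4 to 6 ahead of the selumetinib libraries, and values are given for both sets. No label calls these sets batches or says whether libraries came from separate animals, so p-values measure only the spread between these samples.

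Library totals lay between 21793052 and 33375754 counts. Values are CPM, counts scaled to library depth after TMM correction. PBS 1 stood apart, with 72015 CPM summed over 8 skeletal muscle markers against 4.75 to 315 CPM in the other PBS libraries, and its TMM factor was 0.728. No Y-linked count was seen in PBS 1, in carboplatin 1 or with selumetinib. The labelled tissue was checked with 10 mature oligodendrocyte markers, which summed to between 18955 and 94968 CPM over the 12 libraries. The sum was lowest in selumetinib 2 (18955 CPM), selumetinib 1 (27551 CPM) and PBS 1 (28309 CPM). It was 64816 CPM in selumetinib 3 and at least 50637 CPM in every remaining library. The selumetinib libraries thus differed among themselves in this sum, and its part in the values below was not tested.

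Haemoglobin is a tetramer of alpha-type and beta-type globin chains, each holding a haem group that binds oxygen. In the adult mouse, Hba-a1 and Hba-a2 encode the alpha chain and Hbb-bs and Hbb-bt encode the beta chain. Alas2 is the erythroid form of 5-aminolevulinate synthase, which starts haem synthesis, and Slc4a1 encodes band 3, the anion exchanger that anchors the red cell membrane to its skeleton. Mature mammalian red cells have no nucleus. Reticulocytes, the youngest circulating red cells, still carry mRNA, so a bulk tissue sample can hold globin mRNA from the blood in its vessels. In bulk samples, fewer cells of a type and less RNA per cell cannot be told apart.

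On build mm10 (GENCODE annotation), Hba-a1 (ENSMUSG00000069919) lies at chr11:32283511-32284465 and Hba-a2 (ENSMUSG00000069917) at chr11:32296489-32297298, both on the plus strand. The beta genes lie on the minus strand, Hbb-bs (ENSMUSG00000052305) at chr7:103826534-103828096 and Hbb-bt (ENSMUSG00000073940) at chr7:103812524-103813996. Each of the 4 globin genes has 3 exons. Alas2 (ENSMUSG00000025270) lies at chrX:150547375-150570638 on the plus strand with 11 exons, and Slc4a1 (ENSMUSG00000006574) at chr11:102348824-102366203 on the minus strand with 20 exons.

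The copies within a chain type are nearly the same sequence, which bears on every count given for them. Hba-a1 and Hba-a2 have coding sequences of 429 bases that differ at 1 base, C381T counted from the first base of the start codon, and are 99.8% identical. Hbb-bs and Hbb-bt have coding sequences of 444 bases that also differ at 1 base, C417T, and are 99.8% identical. Neither change alters the encoded protein. The differing base lies in the coding part of exon 3 in all 4 genes, at chr11 32284343 in Hba-a1, chr11 32297160 in Hba-a2, chr7 103826692 in Hbb-bs and chr7 103812683 in Hbb-bt. The 30 coding bases around it are shown because they hold the letter that separates the copies, given in capitals, with all 4 sequences on the gene's own strand.
Hba-a1: catgcctctctggaCaaattccttgcctct
Hba-a2: catgcctctctggaTaaattccttgcctct
Hbb-bs: gtggctggagtggcCgctgccctggctcac
Hbb-bt: gtggctggagtggcTgctgccctggctcac

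How far a read can be placed in 1 copy was measured by the windows of the main transcript that occur in no other GENCODE transcript of another gene. With 50-base windows, 211 of 650 Hba-a1 windows (32.5%) and 66 of 505 Hba-a2 windows (13.1%) were unique. In each of these genes, 50 of the unique windows covered the differing base. For Hba-a1 the other 161 lay at its longer annotated start, 196 bases before the start codon against 35 in Hba-a2. Genome sequence outside annotated transcripts was not part of the window search. Upstream of the 2 genes, 247 of 247 genome bases compared were equal. Genome-aligned reads from this stretch can therefore fit both copies, so 32.5% overstates how far Hba-a1 reads can be placed. Hbb-bs had 34.2% unique windows and Hbb-bt 41.7%, while Alas2 and Slc4a1 were unique throughout. How reads that fit both copies were counted was not given in the sources used here, so the division of counts within a pair is uncertain. The sums of the pairs do not depend on that division, but they lack the shared reads if those were left uncounted. Ratios to globin counts carry the same uncertainty.

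Promoters of 5 of the 6 genes were matched in the RefSeq table (GRCm38.p6); Slc4a1 had no entry. Because the 5 genes moved together, the 250 bases before each start site were searched on both strands for 4 motifs of erythroid and general promoters. A GATA motif, searched as AGATAA and as TGATAA and also as AGATAG and as TGATAG, was found in Hba-a1, Hba-a2, Hbb-bs and Alas2, and in 26.5% of 32851 promoters. CACCC was found in all 5 genes and in 52.0% of promoters. CCAAT was found in the 4 globin genes and in 33.8% of promoters. A TATA motif (ATATAA or TATAAA, which can overlap) was found in all 5 genes and in 16.7% of promoters. It lay between -31 and -28 in the globin genes, whereas the only match in Alas2 lay at -209 on the opposite strand. Upstream of Hba-a1 and Hba-a2, 247 of 247 bases compared were equal once the windows were offset by 3 bases. The stretches below lie outside the annotated exons of the gene itself, and exons of other genes were not checked. They show in capitals the matches that fall inside them for 1 alpha gene, 1 beta gene and Alas2, on the gene's strand. They are Hba-a2 from -220 to -4 (chr11:32296272-32296488), Hbb-bs from -83 to -1 (chr7:103827929-103828011) and Alas2 from -220 to -43 (chrX:150547197-150547374). The GATA match of Hbb-bs at -210, its CACCC at -90 and the 3 CACCC matches of Alas2, nearer the start site than -43, lie outside the stretches shown. A match is a description of letters and not of factor binding.
Hba-a2: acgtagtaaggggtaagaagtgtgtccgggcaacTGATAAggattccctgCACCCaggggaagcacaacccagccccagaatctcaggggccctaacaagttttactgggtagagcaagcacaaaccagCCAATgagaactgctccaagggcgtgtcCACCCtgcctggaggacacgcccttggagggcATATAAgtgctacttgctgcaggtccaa
Hbb-bs: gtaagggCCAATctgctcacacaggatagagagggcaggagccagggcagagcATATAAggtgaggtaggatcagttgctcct
Alas2: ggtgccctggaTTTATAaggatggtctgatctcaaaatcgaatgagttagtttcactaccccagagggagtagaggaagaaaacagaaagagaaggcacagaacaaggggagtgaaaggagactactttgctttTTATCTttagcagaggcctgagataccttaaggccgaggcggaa

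The 6 genes spanned a wide range of levels in the PBS libraries. Per kb of exon, the PBS mean was 1859 CPM for Hbb-bs and 1486 CPM for Hba-a1. It was 138 CPM per kb for Hbb-bt, 71.3 for Hba-a2, 26.7 for Alas2 and 0.553 for Slc4a1. Spread between PBS libraries was also wide. The highest PBS library stood above the lowest by 36.4-fold for Hba-a1, 32.3-fold for Hbb-bs, 34.2-fold for Hbb-bt, 29.4-fold for Alas2, 8.62-fold for Hba-a2 and 109-fold for Slc4a1.

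Hba-a1, the more counted alpha gene, was at 394, 266 and 95.2 CPM in PBS 1 to 3. It was at 2151, 874 and 3462 CPM in PBS 4 to 6. The carboplatin libraries held 5.68, 10.1 and 36.9 CPM of Hba-a1 and the selumetinib libraries 352, 268 and 625 CPM. Every carboplatin library lay below every other library, and the selumetinib libraries lay within the PBS range.

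Hba-a2, its near-identical copy, was at 60.1, 29.5 and 11.0 CPM in PBS 1 to 3 and at 55.5, 34.7 and 94.4 CPM in PBS 4 to 6. It was at 0.756, 1.30 and 3.27 CPM with carboplatin and at 9.27, 5.08 and 17.1 CPM with selumetinib. For Hba-a2 the sets of PBS libraries overlapped, and 2 of the 3 selumetinib libraries lay below the lowest PBS library.

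Hbb-bs, the more counted beta gene, was at 730, 284 and 121 CPM in PBS 1 to 3 and at 2387, 1150 and 3892 CPM in PBS 4 to 6. Carboplatin libraries held 5.62, 9.22 and 41.2 CPM of it and selumetinib libraries 452, 332 and 785 CPM. The order of the 12 libraries was the same for Hbb-bs as for Hba-a1, from carboplatin 1, the lowest, to PBS 6, the highest.

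Hbb-bt, the other adult beta gene, was at 64.1, 23.9 and 7.80 CPM in PBS 1 to 3 and at 155, 66.6 and 267 CPM in PBS 4 to 6. In carboplatin libraries it was at 0.212, 1.26 and 3.41 CPM, the first of these from 7 counts. With selumetinib it was at 25.4, 16.2 and 47.5 CPM, inside the PBS range.

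Alas2 was at 24.5, 18.6 and 5.84 CPM in PBS 1 to 3 and at 117, 48.6 and 171 CPM in PBS 4 to 6. It was at 0.272, 0.693 and 2.24 CPM with carboplatin, the first from 9 counts, and at 16.8, 8.73 and 24.9 CPM with selumetinib. Its carboplatin libraries again lay below all others.

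Slc4a1 was the least counted of the 6 genes. It had 10, 14 and 2 counts in PBS 1 to 3 (0.466, 0.586 and 0.0656 CPM) and 179, 79 and 142 counts in PBS 4 to 6 (7.13, 3.26 and 4.72 CPM). It had 0 counts in all 3 carboplatin libraries and 34, 16 and 34 counts (1.20, 0.568 and 1.45 CPM) in the selumetinib libraries. PBS 3, with its 2 counts, lay under the 3 counts that a count of 0 allows.

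**Figure D1:**
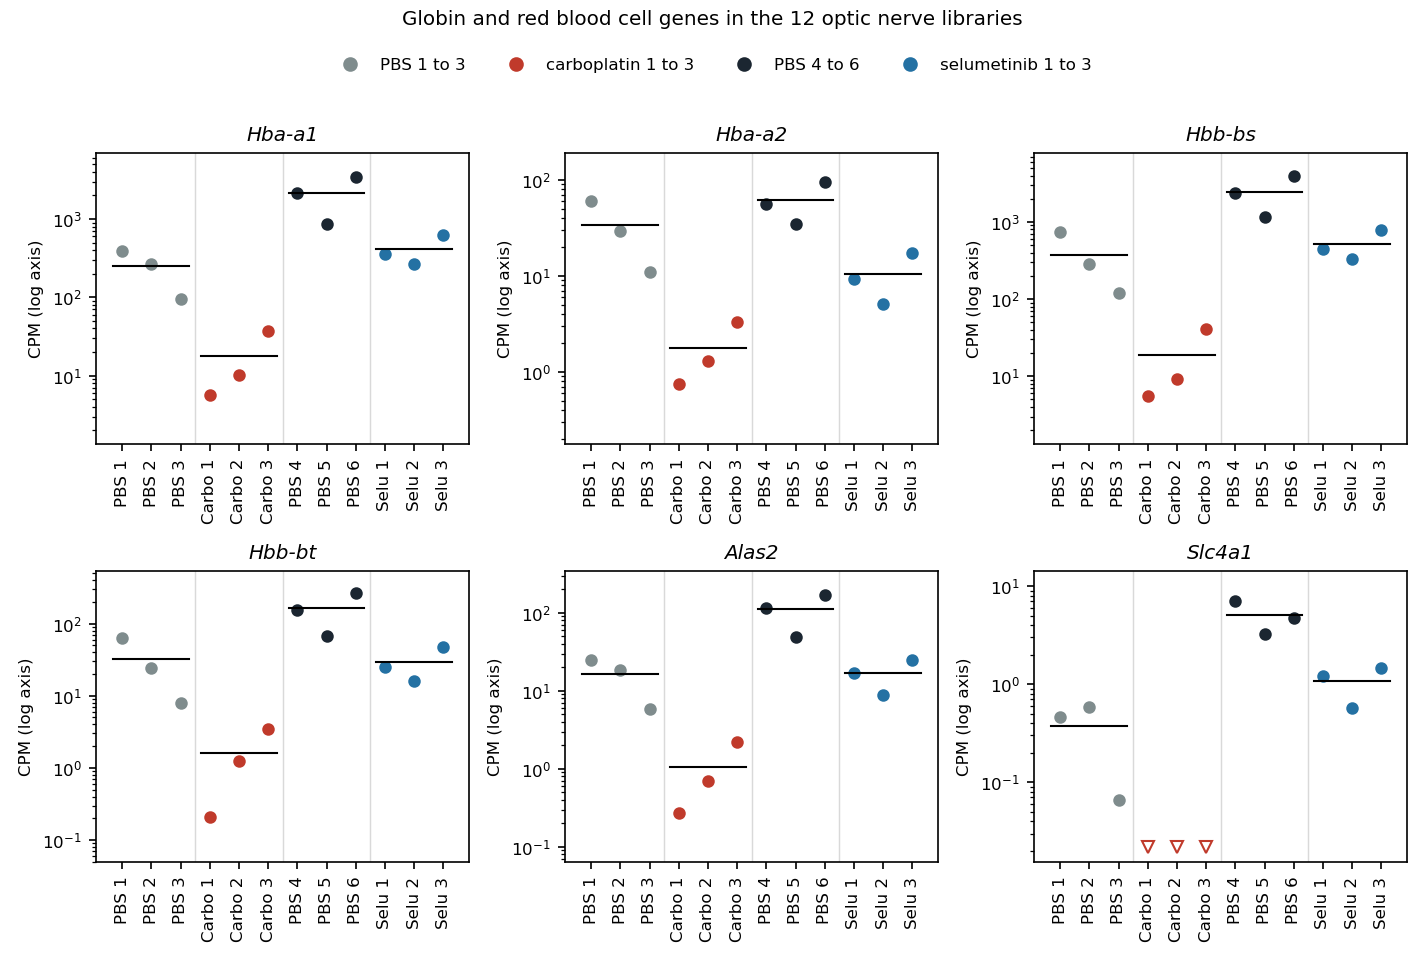
CPM of each gene (log axis) in each of the 12 libraries, coloured by treatment and by set of PBS libraries, with a horizontal line at the mean of each set of 3. Open triangles at the foot of the Slc4a1 panel mark the 3 carboplatin libraries with 0 counts; in the other panels the carboplatin points sit below all others, and PBS 4 to 6 sit above PBS 1 to 3 except for Hba-a2, where they overlap.

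The comparison of carboplatin with PBS asked how the platinum drug changed the optic nerve transcriptome. The 4 globin genes and Alas2 fell in carboplatin libraries. Hba-a1 was 68.8-fold lower (log2 fold change -6.10 ± 1.36, SE; adjusted p = 0.0452, edgeR's quasi-likelihood test), with means of 17.5 ± 16.9 CPM under carboplatin (SD, n = 3) and 1207 ± 1332 CPM under PBS (SD, n = 6). Hba-a2 was 26.7-fold lower (-4.74 ± 0.82, adjusted p = 0.0155), Hbb-bs 76.4-fold lower (-6.26 ± 1.34, adjusted p = 0.0388) and Hbb-bt 59.7-fold lower (-5.90 ± 1.33, adjusted p = 0.0467). Alas2 was 59.9-fold lower (-5.91 ± 1.28, adjusted p = 0.0403). Slc4a1 did not pass (adjusted p = 0.0680). Its PBS mean of 2.70 ± 2.84 CPM was at least 78.9-fold higher than the 0.0343 CPM that 3 counts over the 3 carboplatin libraries together would give.

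Thus 5 of the 6 genes were called lower with carboplatin, where 0.518% of the 18344 genes tested were called lower and 2.09% in either direction. The CPM ranges did not overlap for any of the 6, with carboplatin lower, as for 5.23% of all genes (12.2% in either direction). All 6 had an unadjusted p under 0.05 and a lower value, as had 8.43% of all genes. The median log2 fold change of the 6 was -6.00 against -0.11 over all genes. The gap between the lowest PBS library and the highest carboplatin library was much smaller than these folds, at 2.58-fold for Hba-a1, 3.35-fold for Hba-a2, 2.93-fold for Hbb-bs, 2.29-fold for Hbb-bt and 2.61-fold for Alas2. The calls sat close to the threshold. The count of 5 became 0 without carboplatin 1 or carboplatin 2, and 1 without carboplatin 3, PBS 4, PBS 5, PBS 6, selumetinib 1 or selumetinib 2, while it was 6 without PBS 1 or without PBS 3. All 6 log2 fold changes stayed below 0 with each library left out.

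The comparison of selumetinib with PBS asked the same of the MEK inhibitor. None of the 6 genes passed. The log2 fold changes were -1.54 ± 1.05 for Hba-a1 (SE; adjusted p = 0.367, edgeR's quasi-likelihood test), -2.18 ± 0.70 for Hba-a2 (adjusted p = 0.116) and -1.45 ± 1.02 for Hbb-bs (adjusted p = 0.382). They were -1.71 ± 1.03 for Hbb-bt (adjusted p = 0.315), -1.94 ± 1.00 for Alas2 (adjusted p = 0.255) and -1.33 ± 1.18 for Slc4a1 (adjusted p = 0.490). The count called was 0 of 6, and 0% of all genes were called. Hba-a2 had an unadjusted p under 0.05, as did 24% of all genes, and it was the gene called by DESeq2 (1 of 6) and by limma voom (1 of 6). Without selumetinib 3 it also passed in edgeR's test (adjusted p = 0.0431). The CPM ranges of all 6 genes overlapped between selumetinib and PBS, where 5.93% of all genes had ranges apart. The carboplatin and selumetinib comparisons share their PBS libraries.

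Carboplatin and selumetinib libraries were also compared directly, with the PBS libraries entering only the shared estimates of spread and scaling. Hba-a1 (log2 fold change -4.56 ± 1.30, adjusted p = 0.0423), Hbb-bs (-4.81 ± 1.29, adjusted p = 0.0353), Hbb-bt (-4.19 ± 1.27, adjusted p = 0.0497) and Slc4a1 (adjusted p = 0.0455) were lower with carboplatin. The selumetinib mean of Slc4a1 was at least 31.4-fold higher than the floor of 3 counts. Hba-a2 (-2.55 ± 0.78, adjusted p = 0.0501) and Alas2 (-3.97 ± 1.21, adjusted p = 0.0512) missed the threshold narrowly. So 4 of 6 were called lower, against 8.35% of all genes in that direction and 14% in either. The CPM ranges of all 6 lay apart with carboplatin lower, against 20.8% of all genes in that direction and 41.7% in either. The count of 4 became 0 without any 1 of carboplatin 1, carboplatin 2, carboplatin 3, PBS 5, selumetinib 1 and selumetinib 2. Leaving out PBS 4 gave 1 and leaving out PBS 2 gave 2, whereas leaving out PBS 1 or PBS 3 gave 6.

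The PBS libraries themselves differed. Every one of PBS 4, 5 and 6 held more Hba-a1, Hbb-bs, Hbb-bt, Alas2 and Slc4a1 than any of PBS 1, 2 and 3, and only Hba-a2 overlapped. With the 4 sets of libraries fitted as groups, PBS 1 to 3 were lower than PBS 4 to 6 by log2 fold changes of -3.10 ± 0.82 for Hba-a1, -2.71 ± 0.87 for Hbb-bs, -2.35 ± 0.94 for Hbb-bt, -2.79 ± 0.77 for Alas2 and -3.76 ± 0.77 for Slc4a1 (SE, n = 3 against 3). For Hba-a2 the value was -0.88 ± 0.70. None of the 6 passed adjustment in edgeR's quasi-likelihood test (adjusted p from 0.179 to 0.577), 5 had an unadjusted p under 0.05 (against 3.6% of all genes that were lower at that p), and DESeq2 called 4 and limma voom 0. Of all genes, 0% were called lower and 0.00545% in either direction. The ranges were apart for 5 of 6 genes, against 10.4% of all genes apart in that direction and 22.6% in either.

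Each treatment was therefore also set against the set of PBS libraries listed before it, and against the other PBS set. Against PBS 1 to 3, carboplatin libraries had log2 fold changes of -3.84 ± 0.85 for Hba-a1, -4.23 ± 0.80 for Hba-a2, -4.34 ± 0.94 for Hbb-bs, -4.29 ± 1.04 for Hbb-bt and -3.92 ± 0.84 for Alas2. The PBS 1 to 3 mean of Slc4a1 was at least 10.9-fold higher than the floor. None of the 6 passed (adjusted p from 0.0518 to 0.112, edgeR's quasi-likelihood test, where 0.0872% of genes were called lower and 0.611% in either direction), and all 6 had an unadjusted p under 0.05, as had 9.06% of all genes with a lower value. Their ranges were apart with carboplatin lower for all 6, against 7.9% of all genes. PBS 4 to 6 are the set listed before selumetinib, so treatment and set cannot be told apart when carboplatin is set against them. In that comparison all 6 were called lower with carboplatin (0.872% of all genes, and 2.74% in either direction), with adjusted p from 0.0107 to 0.0210. All 6 ranges were apart with carboplatin lower, against 22.8% of all genes in that direction and 45.9% in either, and 19.1% of all genes had an unadjusted p under 0.05.

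Against PBS 4 to 6, selumetinib libraries had log2 fold changes of -2.38 ± 0.79 for Hba-a1, -2.56 ± 0.74 for Hba-a2, -2.24 ± 0.86 for Hbb-bs, -2.45 ± 0.94 for Hbb-bt, -2.74 ± 0.77 for Alas2 and -2.23 ± 0.71 for Slc4a1. None passed (adjusted p from 0.271 to 0.272, where 0% of all genes were called), and all 6 had an unadjusted p under 0.05, as had 5.88% of all genes with a lower value. The ranges of all 6 were apart with selumetinib lower, against 12.6% of all genes. Y-linked counts were 0 in all 3 selumetinib libraries and 4538 to 5866 in PBS 4 to 6. Treatment and Y-linked counts therefore cannot be told apart in this comparison. Against PBS 1 to 3 the selumetinib values were 0.72 ± 0.76 for Hba-a1, -1.68 ± 0.71 for Hba-a2, 0.47 ± 0.82 for Hbb-bs, -0.10 ± 0.89 for Hbb-bt, 0.05 ± 0.73 for Alas2 and 1.54 ± 0.73 for Slc4a1. None of these passed and 1, that of Hba-a2, had an unadjusted p under 0.05, against 28.7% of all genes. The sign of the selumetinib difference thus depended on the PBS set for Hba-a1, Hbb-bs, Alas2 and Slc4a1. Whether the 2 treatments differed in effect was tested as carboplatin against PBS 1 to 3 minus selumetinib against PBS 4 to 6, a test added after the data were seen. None of the 6 passed (adjusted p from 0.189 to 0.529), 1 had an unadjusted p under 0.05 (against 20.4% of all genes, and 12.6% with the carboplatin effect lower), and 0.00545% of all genes were called in the direction of a lower carboplatin value. Treatment and set cannot be told apart for differences between the carboplatin and selumetinib libraries, or between selumetinib and PBS 1 to 3. The difference of effects also carries the Y-linked limit of its selumetinib part.

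**Figure D2:**
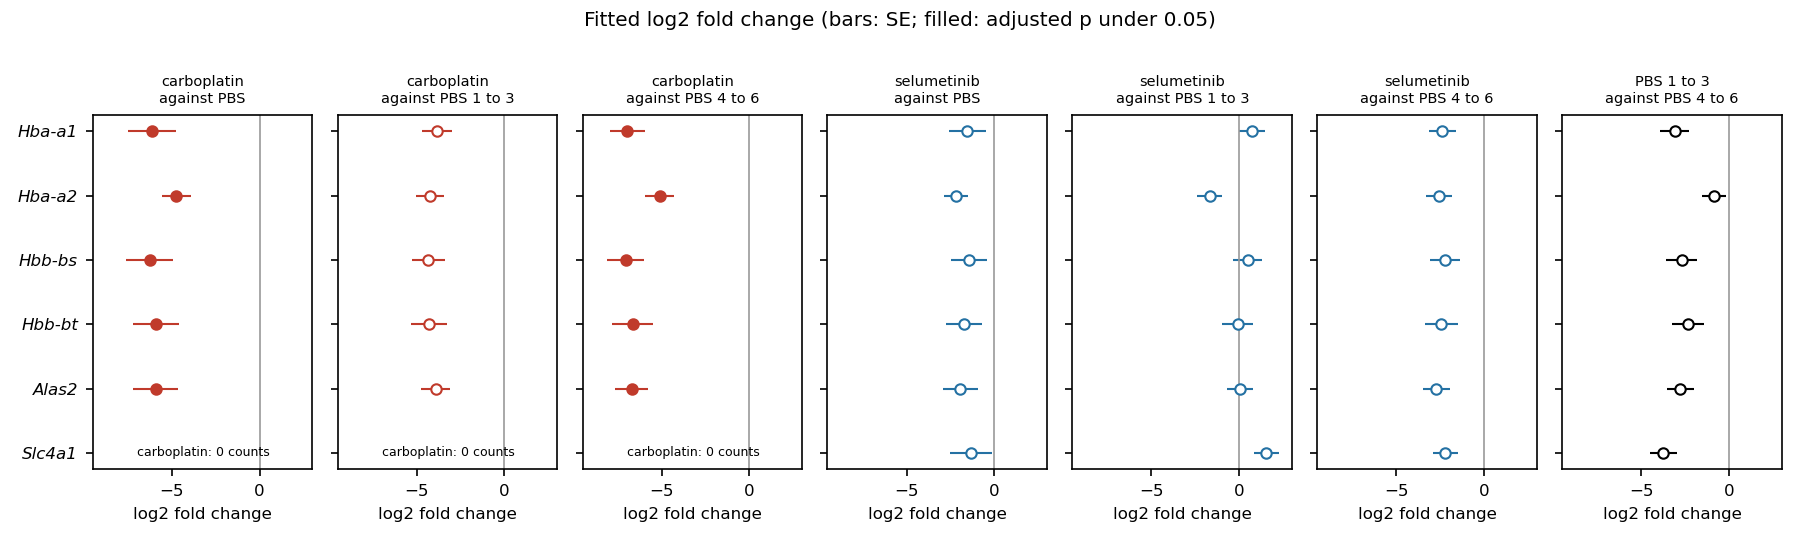
Fitted log2 fold change (horizontal axis, first group minus second) of each gene in 7 comparisons, with bars of 1 SE and filled points for an adjusted p under 0.05. The carboplatin values lie at -3.84 or below in all 3 carboplatin panels, while the selumetinib values move from below 0 against PBS 4 to 6 to both sides of 0 against PBS 1 to 3; Slc4a1 has no plotted value where carboplatin had 0 counts.

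The division of alpha counts between the near-identical copies followed another pattern than the levels. Hba-a2 made up 13.2%, 9.98% and 10.3% of the alpha counts in PBS 1 to 3 (95% Wilson intervals spanning 9.31% to 13.9%). It made up 2.52%, 3.82% and 2.65% in PBS 4 to 6 (intervals spanning 2.39% to 4.08%). In carboplatin libraries the Hba-a2 share was 11.7% (25 of 213 counts, interval 8.08% to 16.8%), 11.5% (32 of 279, 8.24% to 15.7%) and 8.15% (98 of 1203, 6.73% to 9.83%). In selumetinib libraries it was 2.56%, 1.86% and 2.66% (intervals spanning 1.58% to 2.93%). The share thus lay between 8.15% and 13.2% in PBS 1 to 3 and carboplatin and between 1.86% and 3.82% in PBS 4 to 6 and selumetinib, with no overlap in shares or intervals.

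That division of the libraries was noticed after the values were seen and has no test. It follows the order in which the labels list the libraries and not along treatment, and 5.71% of all genes had CPM ranges apart along it. Summed skeletal muscle markers lay apart along it too, at 115 to 72015 CPM in PBS 1 to 3 and carboplatin and 4.75 to 6.99 CPM in the other 6 libraries. Their part in the Hba-a2 share was not tested. Carboplatin libraries, with 213 to 1203 alpha counts, and PBS 1 to 3, with 3236 to 9751, differed widely in alpha counts while their Hba-a2 shares overlapped. Intervals cover counting error only, because reads without molecular identifiers are not independent molecules.

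The Hbb-bt share of the adult beta counts did not divide the libraries in this way. It was 8.07%, 7.78% and 6.07% in PBS 1 to 3 and 6.08%, 5.47% and 6.41% in PBS 4 to 6. It was 3.63% (7 of 193 counts, interval 1.77% to 7.30%), 12.1% (31 of 257, 8.63% to 16.6%) and 7.63% (102 of 1336, 6.33% to 9.18%) with carboplatin. With selumetinib it was 5.32%, 4.67% and 5.71%. The Hbb-bt shares of PBS 1 to 3 and PBS 4 to 6 overlapped, and the carboplatin libraries spanned all the others.

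**Figure D3:**
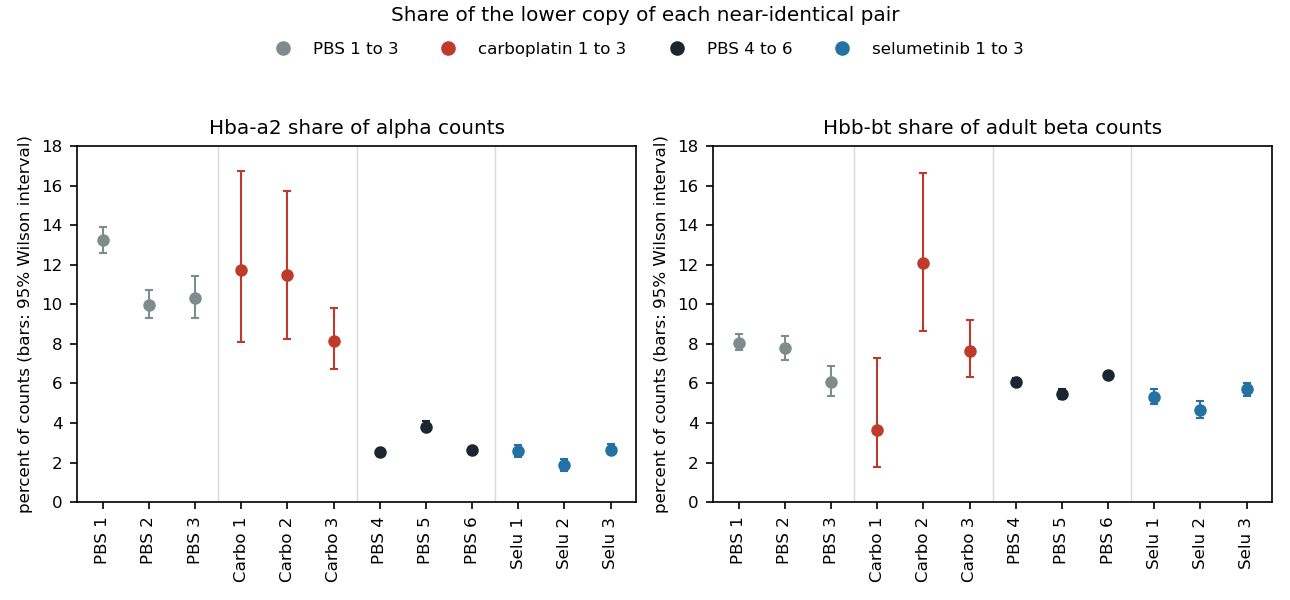
Percent of counts in the less counted copy of each pair, per library, with 95% Wilson intervals; Hba-a2 among alpha counts at left and Hbb-bt among adult beta counts at right. At left PBS 1 to 3 and carboplatin lie at 8.15% or above and PBS 4 to 6 and selumetinib at 3.82% or below, whereas at right the sets overlap.

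Ratios between the other genes varied far less than their levels. Alpha counts per beta count were 0.805 ± 0.134 in PBS (SD, n = 6), 1.03 ± 0.11 with carboplatin (n = 3) and 0.772 ± 0.015 with selumetinib (n = 3). The ranges, 0.572 to 0.962 in PBS and 0.900 to 1.10 with carboplatin, overlapped. Alas2 counts per 1000 globin counts were 24.1 ± 3.7 in PBS, 26.8 ± 4.8 with carboplatin and 17.0 ± 3.0 with selumetinib. For Alas2 the selumetinib range, 14.1 to 20.0, touched the PBS range of 19.6 to 30.8, and the carboplatin range was 22.2 to 31.7. These Alas2 ratios lay between 14.1 and 31.7 while the summed CPM of the 6 genes ran from 12.5 in carboplatin 1 to 7891 in PBS 6. Slc4a1 counts per 1000 globin counts were 0.280 to 1.53 in PBS and 0.914 to 1.43 with selumetinib. The carboplatin libraries held 3481 globin counts in all, so 0 Slc4a1 counts allow up to 0.862 per 1000. That limit lay below PBS 2, PBS 4 and PBS 5 (0.972 to 1.53 per 1000) and below all 3 selumetinib libraries. It lay above PBS 1, PBS 3 and PBS 6 (0.373, 0.280 and 0.611 per 1000), from which a lower Slc4a1 share was not detectable at this depth. PBS 2 and selumetinib 2 had only 14 and 16 Slc4a1 counts, so a lower share is uncertain against them too. Of the 3481 globin counts, 2539 came from carboplatin 3.

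Other genes of the red cell programme were read from lists. Of the genes named from them, Kel, Gata1, Klf1, Gfi1b, Zfpm1, Lmo2, Slc25a37 and Hemgn were chosen after their values were seen. Among 9 other globin genes, 7 were in the table, of which Hbb-bh0, Hbb-bh1, Hbb-bh2 and Hba-x had no count. Hbq1a, a theta-type globin, was tested and not called. Of 11 haem synthesis genes that all cells use, none was called in any of the 4 comparisons, and their median log2 fold change with carboplatin was -0.11, as over all genes. The 2 with the smallest p were Slc25a38, which imports glycine into mitochondria (0.47 ± 0.16, adjusted p = 0.167), and Uros, a later enzyme of the pathway (-0.84 ± 0.38, adjusted p = 0.295). Alas2 was thus the haem synthesis gene called lower, beside 0 of the 11.

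Among 17 red cell membrane and skeleton genes, 15 were in the table and 13 were tested. None was called against PBS in either treatment (median log2 fold change -1.41 with carboplatin and -0.78 with selumetinib). These medians depended on the PBS set. With carboplatin the median was -1.66 against PBS 1 to 3 and -0.19 against PBS 4 to 6, and with selumetinib it was -0.24 and -0.04. Their summed CPM was 1483 in PBS 1, the library rich in skeletal muscle transcripts, and 129 to 205 in the other PBS libraries. Add2 (-4.56 ± 1.15, adjusted p = 0.0296) and Dmtn (-3.11 ± 0.63, adjusted p = 0.0169), membrane skeleton genes that neurons also express, were lower with carboplatin than with selumetinib (2 of 13, against 8.35% of all genes). Kel, a blood group protein with 26 counts in all, was counted in PBS 4 to 6 and listed at 0 in the other 9 libraries.

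Counts of 9 erythroid transcription factors ranged widely. Zfpm1, a GATA cofactor, and Lmo2, an adaptor of GATA complexes that vessel cells also express, had PBS means of 24.6 and 23.9 CPM. Gata1, the master regulator of red cell genes, had 15 counts over the 12 libraries, Klf1 75 and Gfi1b 2, and none of these 3 was tested. Of the 6 factors tested none was called against PBS. Bcl11a (-4.44 ± 0.84, adjusted p = 0.0136) and Myb (-3.39 ± 1.01, adjusted p = 0.0469) were lower with carboplatin than with selumetinib (2 of 6, against 8.35% of all genes). Bcl11a was at 0.245 to 0.635 CPM with carboplatin, 0.754 to 5.28 in PBS and 3.12 to 14.4 with selumetinib. Myb was at 0 to 0.181, 0.199 to 2.85 and 0.849 to 1.46 CPM in the same groups. Of 20 genes of late red cells and reticulocytes, 18 were in the table and 16 were tested. None was called against PBS, with a median of -0.48 for carboplatin and -0.36 for selumetinib. Slc25a37, which imports iron into mitochondria, had -0.73 ± 0.18 with carboplatin (adjusted p = 0.0632). Hemgn, a nuclear protein of erythroid cells, was at 0.478 to 0.797 CPM in PBS 4 to 6, at most 0.0466 CPM in PBS 1 to 3 and at 0 in all carboplatin libraries. Ube2o, a ubiquitin-conjugating enzyme of reticulocytes and other cells, was lower with carboplatin than with selumetinib (1 of 16, -1.10 ± 0.30, adjusted p = 0.0381).

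Markers of other blood and vessel cells are given beside the globin values. Over 10 lymphocyte markers the summed CPM was 26.7 to 29.5 in PBS 1 to 3, 31.6 to 38.7 in PBS 4 to 6, 13.1 to 21.9 with carboplatin and 15.5 to 24.9 with selumetinib. Ccr2, a chemokine receptor of blood monocytes, was called lower with carboplatin than with PBS (1 of 10 blood monocyte and border macrophage markers; -3.40 ± 0.65, adjusted p = 0.0238), at 0.612 to 1.57 CPM with carboplatin against 5.40 to 17.6 CPM in PBS. Over 12 neutrophil markers the sum was 23.7 to 79.6 CPM in PBS 1 to 3, 55.8 to 102 in PBS 4 to 6, 5.79 to 63.1 with carboplatin and 5.89 to 14.7 with selumetinib, and 0 of 11 tested were called against PBS. These sums leaned on Ltf, which glands also make, with means of 44.7 CPM in PBS 1 to 3 and 9.89 CPM in PBS 4 to 6. Between the PBS sets, 10 of the 11 were fitted lower in PBS 1 to 3, and 0 were called. Their median log2 fold change was -3.33 against 0.04 over all genes. Over 10 platelet markers the sum was 16.3 to 26.2 CPM in PBS, 15.3 to 17.4 with carboplatin and 14.5 to 18.3 with selumetinib.

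Endothelial markers, a measure of vessel wall cells, are given for scale. The sum of 10 was 247 to 581 CPM in PBS, 321 to 392 with carboplatin and 141 to 287 with selumetinib, and 0 of 10 were called. Photoreceptor markers summed to 40.3 to 1553 CPM with carboplatin, 0.931 to 126 CPM in PBS 1 to 3 and at most 2.94 CPM elsewhere. The part of these markers in the differences of Hba-a1, Hbb-bs and the other 4 genes was not tested.

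**Figure D4:**
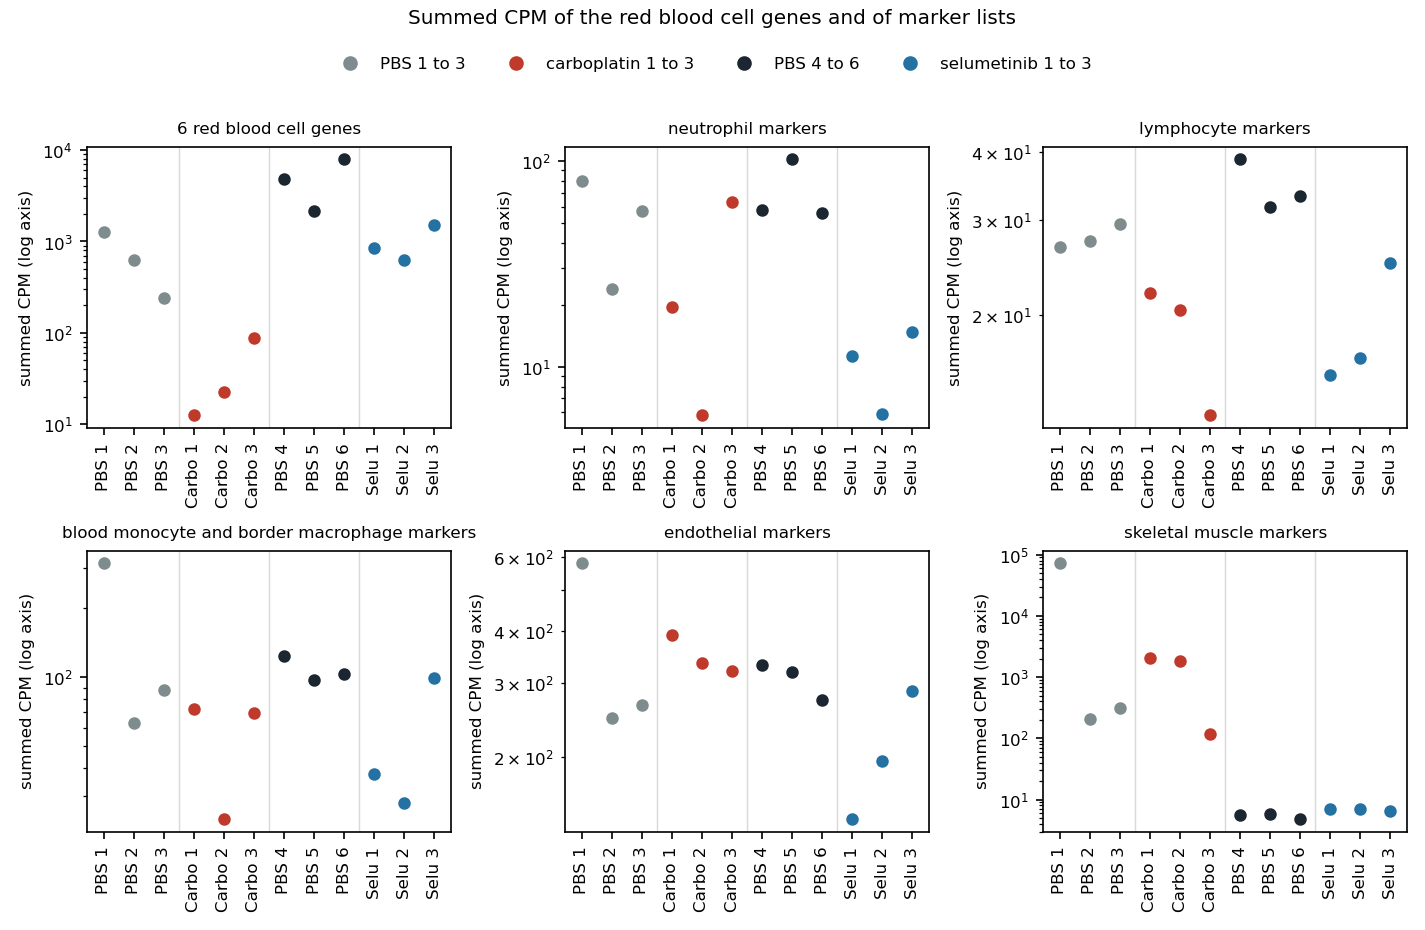
Summed CPM (log axis) of the 6 red blood cell genes and of 5 marker lists in each library. The red blood cell sum is lowest in the carboplatin libraries (12.5 to 87.0 CPM) and highest in PBS 4 to 6 (2177 to 7891 CPM), while the endothelial sum stays between 141 and 581 CPM in all 12.

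Among 18338 other genes, those whose log2 CPM followed the mean of the 6 most closely over the 12 libraries were ranked by Spearman's rho, as a description. Those closest included Apex2 (0.98), Igj (0.96), Calr (0.95), Exoc4 (0.95), Fam173b (0.94), Nedd4 (0.93), Usp40 (0.92), Pdia6 (0.92) and Ggcx (0.92). In all, 22 genes (0.120%) reached 0.9. Igj, the joining chain of secreted antibodies, was at 1.01 to 1.86 CPM in PBS 1 to 3, 7.50 to 12.7 in PBS 4 to 6, 0.453 to 0.968 with carboplatin and 1.10 to 4.32 with selumetinib.

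Apex2, a DNA repair endonuclease, overlaps Alas2. It lies at chrX:150519519-150589868 on the minus strand, spans all 23264 bases of Alas2 and shares 311 exonic bases with it, which are 12.9% of the Alas2 exons and 3.56% of its own. Apex2 was at 9.73, 6.03 and 5.08 CPM in PBS 1 to 3 and at 18.1, 12.7 and 31.0 CPM in PBS 4 to 6. It was at 3.51, 2.94 and 4.34 CPM with carboplatin and at 7.85, 7.63 and 9.54 CPM with selumetinib. The libraries with the most Alas2 thus also held the most Apex2, over a narrower range. Whether counting used strand was not given in the sources used here, so reads of Apex2 and Alas2 cannot be told apart where they overlap, and both values carry that uncertainty. The 4 globin genes and Slc4a1 overlap no annotated gene.

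**Figure D5:**
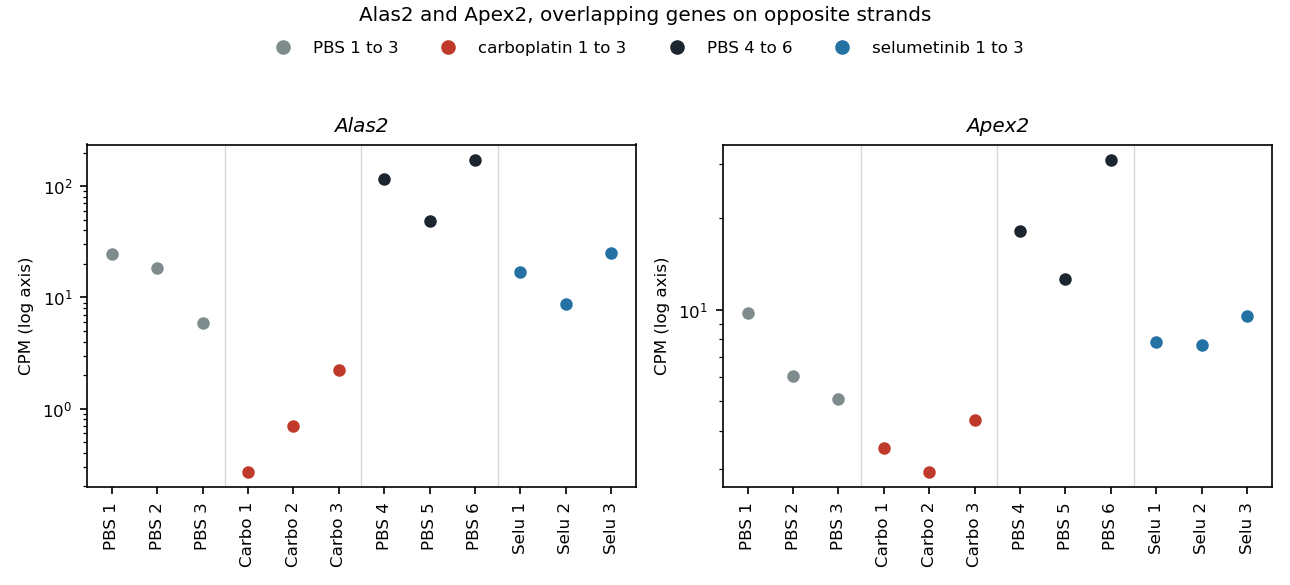
CPM (log axes of different range) of Alas2 at left and Apex2 at right in each library. PBS 6 is highest in both, at 171 CPM for Alas2 and 31.0 CPM for Apex2, and the carboplatin libraries are the lowest 3 in both.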

How the data were processed

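Poly(A) RNA from mouse optic nerve was sequenced in 12 libraries. The deposited table holds raw read counts per gene. The submitters' processing notes name FastQC, Trimmomatic, STAR, HTSeq and DESeq2 as tools and mm10 as the build. The sources used here do not give tool versions, the strand setting or how reads that fit several genes were handled. Libraries held 21793052 to 33375754 counts, and no 2 libraries were identical.

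The 6 genes were matched by symbol. Of 35275 genes listed, 18344 passed edgeR's filter (minimum count 10, minimum total 15) and were tested with edgeR 4.0.16 (TMM factors, robust quasi-likelihood test, R 4.3.3). The 3 treatments were fitted together over all 12 libraries, and a second fit split PBS into PBS 1 to 3 and PBS 4 to 6. P-values were adjusted by Benjamini-Hochberg over all genes tested, with a threshold of 0.05. SEs were derived from the fold change and the F statistic. A gene with 0 counts in a group was set against a floor of 3 counts, and shares carry 95% Wilson intervals. The code was tested on simulated counts.

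Alternatives included voom with sample weights (limma 3.58.1), DESeq2 1.42.0, other scaling and filters, the 6 genes left out of library sizes, copies summed, each PBS set as controls, a term for Y-linked counts, a replicate block and leaving out each library. The difference of treatment effects was added after the data were seen.

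The genes and the 17 lists (171 genes) were chosen with earlier results of these data known. Named genes are the 6 genes, from each list those called (or the 2 with the smallest p where none was called), genes without a count, and the 10 genes with the highest Spearman correlation with the mean of the 6, apart from those said to be chosen after their values were seen. Some results for genes that this rule names are not reported here.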

Additional observations from a re-analysis of the deposited data

How the results depend on the processing

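With carboplatin against PBS, 5 of the 6 genes were called, against 3 with limma voom, 1 with no filter on low counts, 1 with only the groups compared, 3 with upper-quartile factors, 0 with PBS 1 to 3 as controls and 0 to 6 with 1 library left out. With carboplatin against selumetinib, 4 were called, against 2 with limma voom, 1 with no filter and 0 to 6 with 1 library left out. With selumetinib against PBS, 0 were called, against 1 with DESeq2, 1 with limma voom and 0 to 1 with 1 library left out. Between the PBS sets 0 were called, against 4 with DESeq2 and 0 to 0 with 1 library left out. Over all genes, 383 were called with carboplatin against PBS, against 1574 with DESeq2, 5470 with limma voom, 112 with PBS 1 to 3 as controls, 640 with a Y-linked term and 73 to 1941 with 1 library left out. With carboplatin against selumetinib 2568 were called, against 4715, 10788 and 4290 with DESeq2, limma voom and the Y-linked term, and 134 to 5974 with 1 library left out. With selumetinib against PBS 0 were called, against 2403, 10165 and 2605 with the same 3 settings, and 0 to 4089 with 1 library left out. Between the PBS sets 1 gene was called, against 599 with DESeq2, 65 with limma voom, 5 with a filter of 1 CPM, 2 with no filter, 0 with only the groups compared and 0 to 84 with 1 library left out. The cause was not tested.

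Log2 fold changes turned positive only with selumetinib against PBS, in 9 cases: with PBS 1 to 3 as controls for Alas2 (0.046), Hba-a1 (0.72), Hbb-bs (0.47) and Slc4a1 (1.54), with the replicate block for Hba-a1 (0.46), Hbb-bs (0.26) and Slc4a1 (1.67), and with the Y-linked term for Hba-a1 (0.16) and Slc4a1 (1.12). Deviations from group means had r from -0.12 to 0.38 between same-numbered libraries and from -0.47 to 0.39 between differently numbered ones. With 3 libraries per treatment these values cannot decide whether the numbers pair the libraries. With the replicate block, 0 of the 6 genes were called in each of the 3 treatment comparisons, and 5, 50 and 2 of all genes with carboplatin against PBS, carboplatin against selumetinib and selumetinib against PBS. No paired analysis was possible between the PBS sets because they share no replicate numbers. Depth limits Slc4a1 most, with 2 to 14 counts in PBS 1 to 3.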

Other observations

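Among 12 tested genes of free haem, haemoglobin and iron handling, 0 were called against PBS in either treatment, and 3 were higher with carboplatin than with selumetinib (edgeR's quasi-likelihood test), where 1036 of all 18344 genes tested were called higher and 14% in either direction. Fth1, the ferritin heavy chain that oxidises and stores iron, had a log2 fold change of 2.18 ± 0.44 (SE; adjusted p = 0.0160). Ftl1, the ferritin light chain, had 1.00 ± 0.25 (adjusted p = 0.0287), and Hmox1, the enzyme that breaks down haem, had 0.72 ± 0.20 (adjusted p = 0.0372). The CPM ranges of Hmox1 were 9.75 to 10.6 with carboplatin, 5.29 to 7.44 with selumetinib and 7.20 to 10.4 in PBS.

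Hbb-y, an embryonic beta-type globin, had 48 counts over the 12 libraries and was not tested. It was at 0.300 to 0.574 CPM with carboplatin, 0 to 0.199 CPM in PBS and 0 to 0.0855 CPM with selumetinib, so its carboplatin libraries were the highest while those of Hbb-bs and Hbb-bt were the lowest. Of 3 globins of other cells, myoglobin (Mb), cytoglobin (Cygb) and neuroglobin (Ngb), 0 were called. Mb was at 30.8 to 6170 CPM in PBS 1 to 3, 7.61 to 221 CPM with carboplatin, 0 to 0.247 CPM in PBS 4 to 6 and 0.257 to 0.497 CPM with selumetinib.

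In the remaining lists, Opalin, a mature oligodendrocyte protein, was lower with carboplatin than with PBS (1 of 10; -2.36 ± 0.41, adjusted p = 0.0162), and Aldh1l1, an astrocyte enzyme, was higher (1 of 7; 1.10 ± 0.25, adjusted p = 0.0461). None of 6 microglia, 8 skeletal muscle and 7 photoreceptor markers was called against the 6 PBS libraries together. With carboplatin against selumetinib, 6 of 7 photoreceptor markers were called higher, as were 1036 of all 18344 genes tested. With carboplatin against PBS 4 to 6, 4 of 7 were called higher, as were 342 of all genes. Against PBS 1 to 3, 0 of 7 were called. Ltf, a neutrophil granule protein that glands also make, was higher with carboplatin than with selumetinib (4.54 ± 1.17, adjusted p = 0.0317).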
